A study of Mus musculus with 8 samples.

Results

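The canonical Wnt pathway was read through 10 genes that it switches on or that feed back on it: Lef1, Tcf7, Axin2, Nkd1, Notum, Rnf43, Znrf3, Sp5, Ascl2 and Lgr5. They were chosen by symbol, and all 10 were present among the 27179 rows of the expression table. RNA was sequenced from 8 tumors, 4 of cxC26 scr and 4 of cxC26 IL-6 KO s1. C26 is a mouse colon carcinoma line of BALB/c origin, and cxC26 is its cachexia-inducing form. The cxC26 scr cells carried Cas9 with a scrambled guide RNA, and cxC26 IL6KOs1 cells (IL-6 KO s1 here) are 1 clone grown from a single cell of a CRISPR/Cas9 Il6 knockout pool. A difference that this clone had by chance and a difference due to the loss of Il6 cannot be told apart. Cells were implanted under the skin of adult male CD2F1 mice with an intact immune system, and each tumor was taken once its host had developed cachexia, the wasting of body weight and muscle. In immunodeficient mice the study injected equal cell numbers and reported no growth defect of the IL-6 KO s1 tumors. In its other experiments on mice with an intact immune system, the IL-6 KO s1 tumors that led to cachexia grew from more cells than the scr tumors. They also took longer to reach this stage. Cell number and growth time therefore cannot be told apart from genotype.

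In the absence of a Wnt signal, a complex built on the scaffolds AXIN and APC marks β-catenin for destruction. A Wnt ligand bound to a Frizzled receptor and an LRP co-receptor halts this complex, and β-catenin enters the nucleus, where it binds the TCF/LEF family of DNA-binding proteins and activates their targets. Several of these targets act back on the pathway: AXIN2 rebuilds the destruction complex, ZNRF3 and RNF43 remove Frizzled from the cell surface, NOTUM strips the lipid from Wnt ligands, and NKD1 acts on Dishevelled. In the intestinal crypt, LGR5 and ASCL2 mark the stem cells, and most colon carcinomas keep the pathway switched on. Lef1 and Tcf7 are also genes of T cells.

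The labels and the markers were examined first, on a log2 scale of counts scaled to library size (log2 CPM). Il6 gave 326 to 438 reads in the scr tumors and 56 to 86 in the IL-6 KO s1 tumors. Small edits by Cas9 need not remove a transcript, and read counts cannot show whether the remaining Il6 RNA encodes a protein. The tumors were covered by 14158989 to 17048062 reads on genes. Krt20, a keratin of the colon epithelium, was abundant at 10.20 ± 0.11 log2 CPM in scr and 10.42 ± 0.05 in IL-6 KO s1 tumors (SD, n = 4). Epcam, an epithelial adhesion gene, had at most 14 reads in any tumor and Cldn4 had none. Cdx2, a transcription factor of the intestine, had 32, 24, 34 and 17 reads in the scr tumors and 1, 0, 0 and 0 in the IL-6 KO s1 tumors. Of 12 epithelial and colon markers, 5 were tested, of which 2 were higher in IL-6 KO s1 tumors and 1 was lower. The lower one was Cdx2 (log2 fold change -5.27, limma adjusted p = 4.18e-05). Cdx2 reached 1 CPM in the scr tumors only, so it was tested only through the group where it is high. Its IL-6 KO s1 values rest on 1, 0, 0 and 0 reads, so the size of its fall depends on the offset added to each read count. Krt18, a keratin of simple epithelia, rose 9.19-fold, from 23, 30, 24 and 21 reads to 282, 268, 219 and 140 (log2 fold change 3.20, SE 0.23, limma adjusted p = 3.02e-06). Cdh1, the E-cadherin gene, rose 2.75-fold (log2 fold change 1.46, limma adjusted p = 0.0025), and Lgals4 was not called at 70 to 136 reads per tumor. Epcam, Cdx2, Krt18, Cdh1 and Lgals4 were named after their values were seen.

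The sequence before the transcription start is shown for Sp5, Lef1 and Axin2, the members with the fewest knockout reads, the largest fall and the widest use as a Wnt readout. Each run holds the 250 bases before a RefSeq start (GRCm38.p6, plus strand, 5′ to 3′), and capitals mark a TCF/LEF word, which is CTTTG followed by 2 bases that are each A or T, read on either strand (no word overlapped another in these windows). The windows lie at chr2:70474673-70474922 (Sp5), chr3:131110047-131110296 (Lef1, first start), chr3:131156044-131156293 (Lef1, internal start) and chr11:108920099-108920348 (Axin2).
Sp5: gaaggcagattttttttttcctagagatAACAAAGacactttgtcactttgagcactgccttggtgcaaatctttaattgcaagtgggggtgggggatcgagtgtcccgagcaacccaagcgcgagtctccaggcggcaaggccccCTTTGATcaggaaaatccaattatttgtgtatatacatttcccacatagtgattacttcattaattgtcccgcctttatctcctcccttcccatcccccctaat
Lef1 first start: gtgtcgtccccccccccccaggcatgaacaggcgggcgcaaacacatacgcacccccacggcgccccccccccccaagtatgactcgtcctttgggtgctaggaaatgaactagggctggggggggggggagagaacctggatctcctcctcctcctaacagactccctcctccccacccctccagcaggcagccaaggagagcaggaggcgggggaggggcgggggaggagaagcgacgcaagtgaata
Lef1 internal start: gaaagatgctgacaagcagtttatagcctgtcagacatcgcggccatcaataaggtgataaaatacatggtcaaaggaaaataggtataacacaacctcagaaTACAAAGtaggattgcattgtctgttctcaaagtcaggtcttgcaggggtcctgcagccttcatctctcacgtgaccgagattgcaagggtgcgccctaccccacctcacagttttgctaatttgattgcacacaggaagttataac
Axin2: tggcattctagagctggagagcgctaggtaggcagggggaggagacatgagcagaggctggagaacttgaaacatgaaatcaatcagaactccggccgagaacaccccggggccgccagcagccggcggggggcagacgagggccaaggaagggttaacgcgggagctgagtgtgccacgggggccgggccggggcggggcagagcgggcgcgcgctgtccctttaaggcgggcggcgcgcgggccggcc
The Sp5 window held 2 words, 222 and 104 bases before the start. The internal Lef1 window held 1, at 147 bases before its start, while the first Lef1 window and the Axin2 window held none. The table had 12 windows for 7 of the 10 members, and words occurred in 1 window each of 2 members, Sp5 and Lef1. Lef1 had 4 windows, of which the internal one shown was the only one with a word. Of all 32851 promoter windows of this length, 14.8% held at least 1 word and 1.43% held at least 2. A word is only a string of letters, and its absence from these windows says nothing about binding elsewhere. No window was found for Lgr5, Znrf3 or Notum.

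Of the 5 Wnt target genes that could be tested, 3 were lower in the IL-6 KO s1 tumors, by very different amounts. Lef1, the DNA-binding partner of β-catenin that is itself a Wnt target, fell to 9.92% of its scr level. Axin2 fell to 45.8%, and Znrf3 fell to 70.3%. Tcf7 and Notum had lower means that did not pass the test, and no tested member rose. Among the members with too few reads to test, the knockout means of Lgr5, Rnf43 and Ascl2 were higher and those of Nkd1 and Sp5 lower. A gene was tested when it reached 1 CPM, a read count scaled to the size of the library, in at least 4 of the 8 tumors, and it was called at an adjusted p under 0.05 (limma, Benjamini-Hochberg over all 13262 tested genes). On this rule 5 members were tested, of which 3 were lower and 0 were higher, also 0 at an unadjusted p under 0.05 (limma). Of all tested genes, 20.7% were lower and 19.1% were higher. All knockout tumors lay below all scr tumors for 3 of the 5 members and above for 0, beside 19.3% and 17.8% of all tested genes. The median log2 fold change was -0.60 over the 5 members and -0.0029 over all tested genes. A count of 3 of 5 rests on few genes.

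**Figure D1:**
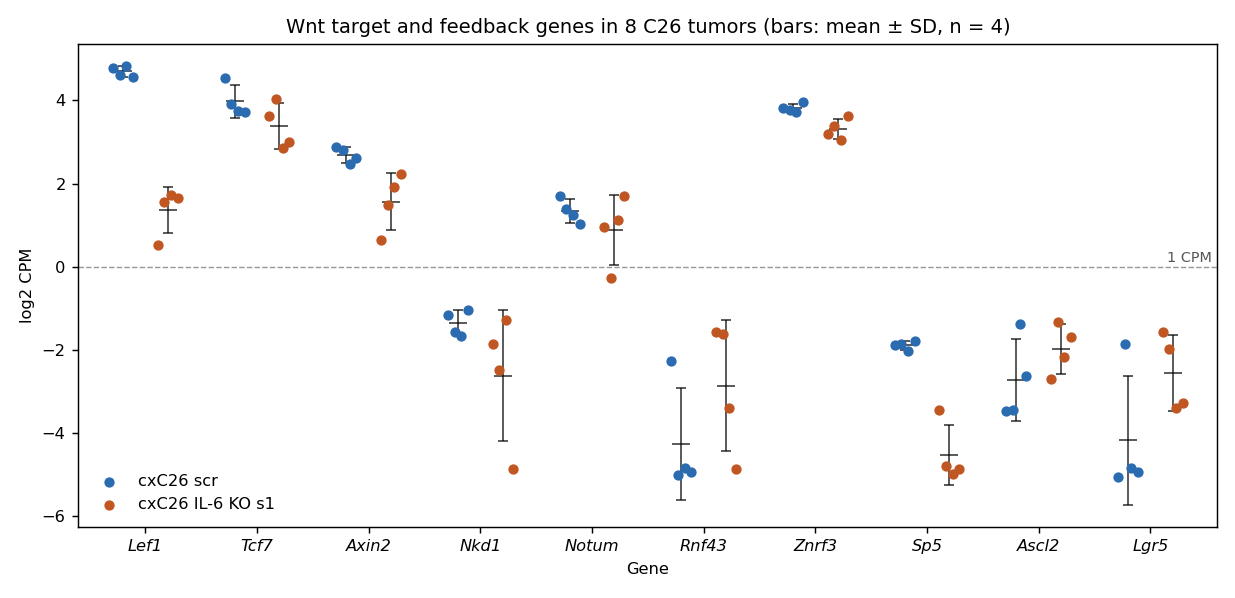
Log2 CPM of the 10 genes in each tumor, with 4 blue points for cxC26 scr, 4 orange points for cxC26 IL-6 KO s1, and the mean ± SD as bars. The groups separate for Lef1, Axin2, Znrf3 and Sp5, and the 5 genes below the 1 CPM line rest on at most 7 reads per tumor. Of all tested genes, 19.3% separate with IL-6 KO s1 lower and 17.8% with IL-6 KO s1 higher.

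Lef1 (chr3:131110297-131224357, RefSeq, GRCm38) carried the largest difference of the tested members. It had 461, 394, 404 and 366 reads in the scr tumors and 23, 40, 52 and 45 in the IL-6 KO s1 tumors. Every knockout tumor was far below every scr tumor, and the first knockout tumor was the lowest. Mean expression was 4.70 ± 0.13 log2 CPM in scr and 1.37 ± 0.56 in IL-6 KO s1 tumors (SD, n = 4 each). The log2 fold change was -3.33 with a standard error of 0.24 (limma adjusted p = 3.02e-06). This is a 10.1-fold fall, and of the 13262 tested genes only 36, Lef1 included, changed by this much or more in that direction.

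Its neighbourhood did not share the direction. The 37 tested genes of the 10 Mb window that holds Lef1 had a median log2 fold change of +0.17. Dkk2, which encodes a secreted Wnt antagonist, starts 975 kb from Lef1 in the same window and rose 2.32-fold (log2 fold change 1.22, SE 0.12, limma adjusted p = 2.85e-05). It went from 8862 to 9684 reads in the scr tumors to 16496 to 23422 in the IL-6 KO s1 tumors.

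Tcf7 (chr11:52246527-52283383), which encodes the DNA-binding protein TCF1, was more variable. Its reads were 389, 242, 189 and 201 in the scr tumors and 200, 227, 113 and 115 in the IL-6 KO s1 tumors. The groups overlapped: the second knockout tumor exceeded 3 of the scr tumors in log2 CPM, and the first scr tumor stood above all others. Means were 3.97 ± 0.39 and 3.38 ± 0.56 log2 CPM (SD, n = 4), a log2 fold change of -0.60 with a 95% interval of -1.18 to -0.02 (limma adjusted p = 0.0952). Without the second knockout tumor the log2 fold change was -0.82 and passed the test (limma adjusted p = 0.0224), and without the first scr tumor it was -0.41 and did not (limma adjusted p = 0.242).

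The TCF/LEF family has 4 genes in mammals, and its makeup differed between the groups. Counts were divided by the merged exon length of each gene, which lets genes be compared in CPM per kb, although isoforms shorter than the merged model make the levels approximate. In scr tumors Lef1 made up 20.0% to 28.0% of the summed family level, and in IL-6 KO s1 tumors 1.70% to 4.69%. Tcf7l2, whose product TCF4 is the main family member of the intestinal epithelium, made up 7.43% to 11.3% in scr and 24.6% to 33.5% in IL-6 KO s1 tumors. Tcf7 was the largest component in all 8 tumors on this scale, at 43.9% to 56.5% in scr and 34.1% to 54.4% in IL-6 KO s1 tumors. That order rests on the division by merged length, 2.625 kb for Tcf7, 8.788 kb for Lef1 and 8.775 kb for Tcf7l2. The Tcf7 model used (GENCODE M21) begins at chr11:52252371, whereas the RefSeq gene extends to 52246527. If reads were counted over the longer gene, 2.625 kb is too short. The Tcf7 share would then be too high and the other shares too low. In undivided CPM, Lef1 (23.8 to 28.4) exceeded Tcf7 (13.1 to 23.3) in every scr tumor. Likewise, Tcf7l2 (19.3 to 24.8) exceeded Tcf7 (7.17 to 16.4) in every IL-6 KO s1 tumor. The shares of Lef1 and Tcf7l2 did not overlap between groups, while those of Tcf7 did.

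**Figure D2:**
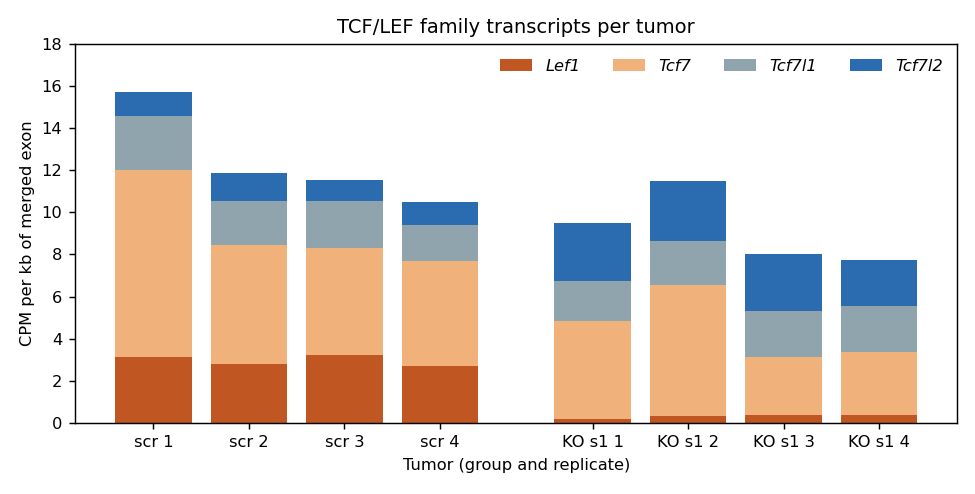
Level of the 4 TCF/LEF genes in CPM per kb of merged exon (vertical axis), stacked for each of the 4 scr and 4 IL-6 KO s1 tumors. The Lef1 segment shrinks from 20.0% to 28.0% of the bar to at most 4.69%, and the Tcf7l2 segment grows from at most 11.3% to at least 24.6%.

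Tcf7l2 rose 2.29-fold, from 124 to 191 reads in the scr tumors to 279 to 392 in the IL-6 KO s1 tumors (log2 fold change 1.19, SE 0.14, limma adjusted p = 6.67e-05). The median of its own 10 Mb window was +0.31. Tcf7l1, a family member known mainly as a repressor, had a log2 fold change of -0.03 with a 95% interval of -0.36 to 0.31.

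Among the feedback inhibitors, Axin2 (chr11:108917828-108950783) encodes the inducible AXIN scaffold. It had 122, 113, 78 and 94 reads in the scr tumors and 25, 38, 59 and 67 in the IL-6 KO s1 tumors. All knockout tumors were below all scr tumors, with a spread among the knockouts of 0.65 to 2.22 log2 CPM. Means were 2.69 ± 0.19 and 1.57 ± 0.68 log2 CPM (SD, n = 4), a log2 fold change of -1.13 with a standard error of 0.30 (limma adjusted p = 0.0111). The fall was 2.18-fold.

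Znrf3 (chr11:5276329-5444847) encodes a ubiquitin ligase that clears Frizzled from the membrane. Its reads were 235, 220, 188 and 240 in the scr tumors and 149, 144, 130 and 177 in the IL-6 KO s1 tumors. The groups did not overlap, but the difference was modest: 3.82 ± 0.10 against 3.31 ± 0.24 log2 CPM (SD, n = 4), a log2 fold change of -0.51 with a standard error of 0.15 (limma adjusted p = 0.0164). The 74 tested genes of its 10 Mb window had a median of -0.25, and after removal of that median Znrf3 was at -0.25 and no longer called (limma adjusted p = 0.208). The call was also lost without the fourth scr tumor (log2 fold change -0.46, limma adjusted p = 0.0546) and without the third knockout tumor (-0.42, limma adjusted p = 0.0523). Of the 10 members, 5 lie on chromosome 11, whose 1072 tested genes had a median log2 fold change of -0.15.

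Notum (chr11:120653788-120661193), the secreted enzyme that removes the lipid of Wnt proteins, had 54, 42, 33 and 31 reads in the scr tumors and 31, 11, 34 and 47 in the IL-6 KO s1 tumors. The groups overlapped, with the second knockout tumor lowest. The log2 fold change was -0.46 with a 95% interval of -1.28 to 0.36 (limma adjusted p = 0.354), an interval that runs from a fall of more than 2-fold to a small rise. Without the second knockout tumor the log2 fold change was -0.08 (limma adjusted p = 0.851).

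**Figure D3:**
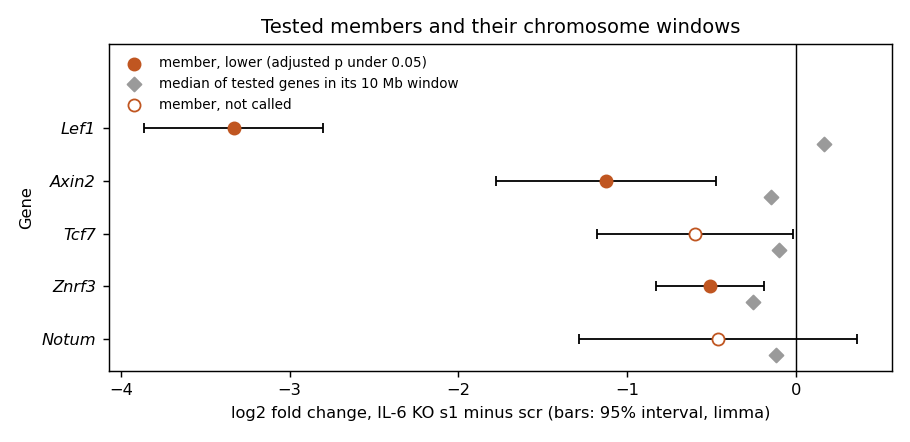
Log2 fold change (IL-6 KO s1 minus scr, horizontal axis) of the 5 tested members with the 95% limma interval, filled where called, beside the median of each gene's own 10 Mb window as a grey diamond. Lef1 at -3.33 and Axin2 at -1.13 lie far from their windows (+0.17 and -0.15), while Znrf3 at -0.51 lies near its window at -0.25.

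The other 5 members had too few reads for the test. Sp5, a zinc finger factor that is a direct target of β-catenin and carries the 2 words shown above, had 4, 4, 3 and 4 reads in the scr tumors and 1, 0, 0 and 0 in the IL-6 KO s1 tumors (chr2:70474923-70477726). The groups did not overlap, and the scr to knockout ratio of the depth-scaled totals was 14.5 with a 95% counting interval of 2.23 to 609.9. The exact two-sided permutation test gave p = 0.0286, the smallest that 70 divisions of 8 tumors allow. With a total of 16 reads, the size of the difference is poorly known.

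The remaining feedback inhibitors were barely detected. Nkd1 (chr8:88521342-88594887) had 7, 5, 4 and 7 reads in scr and 4, 2, 6 and 0 in IL-6 KO s1 tumors, which overlapped (exact permutation p = 0.114). Rnf43 (chr11:87663087-87735539), the sister ligase of Znrf3, had 3, 0, 0 and 0 reads in scr and 5, 4, 1 and 0 in IL-6 KO s1 tumors (exact permutation p = 0.2). Znrf3, by contrast, had at least 130 reads in every tumor.

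The crypt stem cell genes were at the same floor. Lgr5 (chr10:115450314-115587780), the R-spondin receptor that marks intestinal stem cells, had 0, 4, 0 and 0 reads in scr and 5, 3, 1 and 1 in IL-6 KO s1 tumors (exact permutation p = 0.114). Ascl2 (chr7:142966822-142969264), a stem cell transcription factor, had 1, 1, 5 and 2 reads in scr and 2, 5, 3 and 4 in IL-6 KO s1 tumors (exact permutation p = 0.286). Both pairs of groups overlapped, and no difference was detectable at this depth. The intervals of the scr to knockout ratios were 0.0884 to 1.34 for Lgr5 and 0.237 to 1.54 for Ascl2, and cover counting error only.

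In CPM per kb, the members of scr tumors ranked as Tcf7 (6.15 ± 1.85, SD, n = 4), Lef1 (2.96 ± 0.26), Znrf3 (1.79 ± 0.13), Axin2 (1.18 ± 0.15) and Notum (1.06 ± 0.22), with Sp5, Ascl2, Nkd1, Rnf43 and Lgr5 at 0.114 or less. Axin2 and Notum lay within each other's spread. The first place of Tcf7 rests on the division by length, since Lef1 had the higher undivided mean in scr tumors (26.04 against 16.15 CPM). The length used for Tcf7 may also be too short, as given above. In IL-6 KO s1 tumors the order became Tcf7 (4.17 ± 1.63), Znrf3 (1.27 ± 0.22), Notum (0.841 ± 0.418), Axin2 (0.574 ± 0.241) and Lef1 (0.305 ± 0.098). On this scale Lef1 moved from the second to the fifth place, and Notum overlapped both Znrf3 and Axin2. Lef1, Axin2, Tcf7, Notum, Rnf43 and Lgr5 overlap another gene on the opposite strand in GENCODE M21, and the strand setting of the counting was not given in the sources used here, so reads of such partners cannot be told apart.

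Because bulk tumor RNA was sequenced, fewer cells of a type and less RNA per cell cannot be told apart. Markers of T cells and macrophages rose beside the fall of Lef1. Of 14 T cell markers 6 were tested and all 6 were higher, as were all 7 macrophage markers. Cd3g, Cd2, Zap70 and Trac (named after their values were seen) reached 1 CPM in the IL-6 KO s1 tumors only. They were thus tested only through the group where they are high, and the count of 6 higher partly follows from the filter. The summed T cell markers were at 32.1 to 42.4 CPM in scr and 69.2 to 99.6 in IL-6 KO s1 tumors. Most of that sum was Trbc2, a T cell receptor constant gene, and the other 13 markers summed to 2.74 to 6.49 and 15.1 to 26.8 CPM. Macrophage markers, of which C1qa had the highest mean log2 CPM over all 8 tumors, summed to 454.6 to 634.4 CPM in scr and 881.4 to 1451 in IL-6 KO s1 tumors. Cd3e, part of the T cell receptor complex, had 2, 6, 0 and 2 reads in scr and 21, 6, 23 and 14 in IL-6 KO s1 tumors (named after its values were seen). T cell markers thus moved in the direction opposite to Lef1. None of the 8 endothelial markers, of which Pecam1 had the highest mean, was called (limma, also 0 at an unadjusted p under 0.05). Fibroblast-type markers summed to 7795 to 10340 CPM in scr and 5577 to 8719 in IL-6 KO s1 tumors, with 3 of 8 lower, 1 higher and Col3a1 highest in mean. What these cells contributed to the Wnt genes was not tested.

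**Figure D4:**
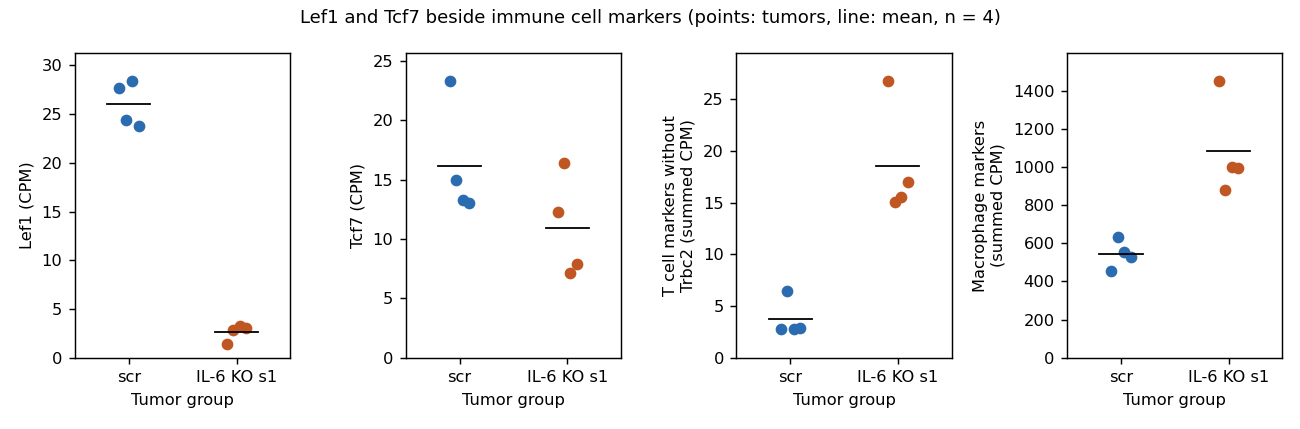
CPM of Lef1 and Tcf7 and summed CPM of 13 T cell markers and 7 macrophage markers, with 1 point per tumor and the mean of 4 tumors as a line. Lef1 is lower in every IL-6 KO s1 tumor while both marker sums are higher in every one, at least 15.1 against at most 6.49 CPM for T cells and at least 881.4 against at most 634.4 CPM for macrophages.

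Other admixed tissue varied between tumors. Skin markers summed to 27.6 CPM in the first scr tumor and to 9.29 to 14.1 in the other tumors. That tumor was also the highest for Tcf7. Without it the log2 fold changes were -3.30 for Lef1, -1.07 for Axin2 and -0.41 for Tcf7 (limma adjusted p = 3.85e-05, 0.0306 and 0.242). What skin contributed to these genes was not tested. Krt10 had the highest mean of the skin markers, Trp63 had no reads in scr, and Krt15, Dsg3 and Krtdap had none in IL-6 KO s1 tumors. Skeletal muscle markers, of which Myh4 had the highest mean over all 8 tumors, spanned 7.99 to 322.2 CPM over both groups, with 1 of 6 called, and adipocyte markers, with Cfd the highest in mean, had 0 of 4 called (limma, also 0 at an unadjusted p under 0.05). Of 2 tested NK cell markers, Klrk1 rose from 3, 5, 2 and 1 reads to 113, 34, 31 and 24 (log2 fold change 3.89, limma adjusted p = 2.1e-04), and Eomes, with the highest mean over all 8 tumors, was not called at -0.43. Klrk1 reached 1 CPM in the IL-6 KO s1 tumors only, so it was tested only through the group where it is high. Klra8 had no reads in scr. B cell markers summed to 1.62 to 2.66 CPM in scr and 2.82 to 10.5 in IL-6 KO s1 tumors, higher in every one. The single tested B cell marker, Cd79a, was not called, and Cd79b, which did not pass the filter, had 7, 9, 6 and 6 reads in scr and 62, 10, 40 and 33 in IL-6 KO s1 tumors. Klrk1 and Cd79b were named after their values were seen.

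The rest of the pathway was described with 108 further genes in lists by role, of which 68 were tested. Of these, 18 were lower (26.5%) and 13 were higher (19.1%), beside 20.7% and 19.1% of all tested genes. All knockout tumors were below all scr tumors for 15 of the 68 and above for 12, where 19.3% of all tested genes lay wholly below and 17.8% wholly above. The pathway lists had a median log2 fold change of -0.05.

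**Figure D5:**
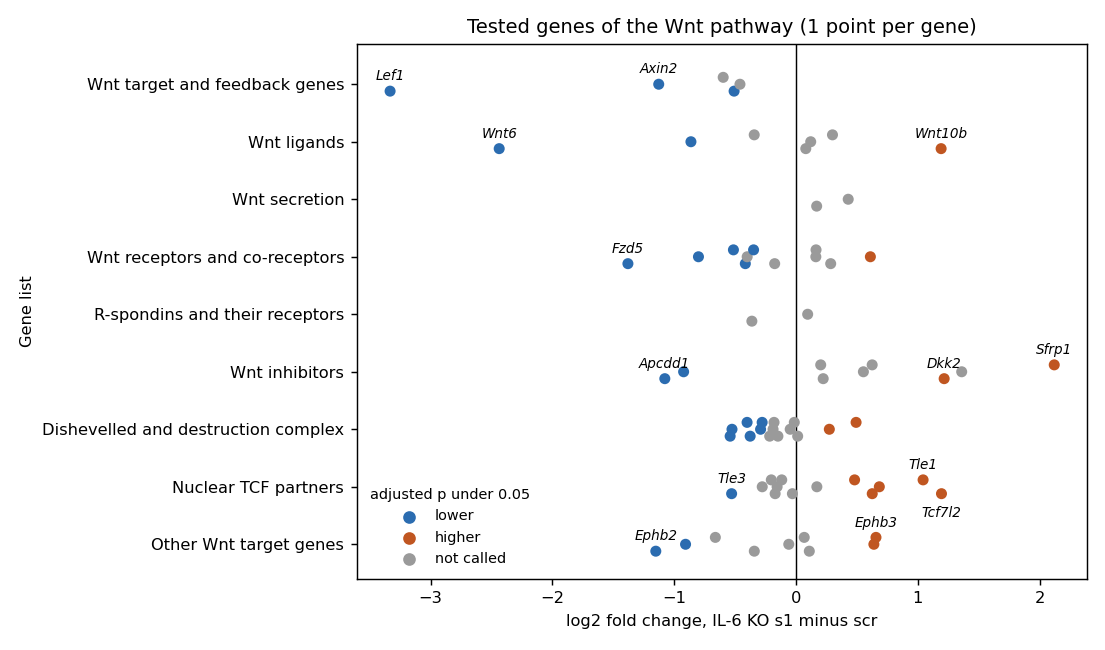
Log2 fold change (IL-6 KO s1 minus scr, horizontal axis) of each tested gene in the member list and the 8 other Wnt lists, blue where lower, orange where higher and grey where not called at an adjusted p under 0.05. Lef1 at -3.33 and Wnt6 at -2.44 are at the low end and Sfrp1 at 2.12 is at the high end.

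Wnt10a had the highest mean log2 CPM of the ligands in both groups, at 7.02 ± 0.38 log2 CPM in scr and 6.15 ± 0.33 in IL-6 KO s1 tumors (SD, n = 4). Its reads were 3174, 1930, 1709 and 1587 in scr and 818, 1130, 1221 and 1170 in IL-6 KO s1 tumors, and the groups did not overlap. Wnt10a fell by 0.86 on the log2 scale (SE 0.19, limma adjusted p = 0.0047). Wnt6 fell furthest, from 53, 33, 33 and 38 reads to 6, 6, 6 and 8 (log2 fold change -2.44, SE 0.30, limma adjusted p = 1.1e-04). It reached 1 CPM in the scr tumors only, so it was tested only through the group where it is high. Wnt10a and Wnt6 lie in one window of chromosome 1, whose median was -0.37. Wnt10b rose from 7, 18, 12 and 15 reads to 33, 39, 17 and 27 (log2 fold change 1.19, SE 0.39, limma adjusted p = 0.0299), although the groups overlapped. Every IL-6 KO s1 tumor reached 1 CPM but not every scr tumor, so it passed the filter only through the group where it is high. Of 7 tested ligands, 2 were lower and 1 was higher, and Wnt1, Wnt3, Wnt3a, Wnt7a, Wnt8a and Wnt8b had no reads. Neither tested gene of Wnt secretion was called (limma, 1 higher at an unadjusted p under 0.05), and the ligand carrier Wls was at 7.89 ± 0.19 and 8.06 ± 0.31 log2 CPM.

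Of 11 tested receptor and co-receptor genes, 5 were lower and 1 was higher. Fzd5, a Frizzled receptor, fell 2.60-fold, from 1477 to 2188 reads in scr to 503 to 692 in IL-6 KO s1 tumors (log2 fold change -1.38, SE 0.12, limma adjusted p = 8.41e-06), in a window with a median of -0.40. Ptk7, a co-receptor with a pseudokinase domain and the highest mean log2 CPM of the list over all 8 tumors, fell by 0.80 on the log2 scale (SE 0.10, limma adjusted p = 9.8e-05). The others called, named after their values were seen, were the co-receptor Lrp6 at -0.42 and the Frizzled genes Fzd3 at -0.51 and Fzd7 at -0.35. Fzd4 rose by 0.61 on the log2 scale (limma adjusted p = 0.013). Of the R-spondins, which protect Frizzled from ZNRF3 and RNF43, none of 4 genes exceeded 6 reads in any tumor and Rspo2 had none. Their receptor Lgr4 was expressed at 2.96 ± 0.15 and 3.05 ± 0.29 log2 CPM and was not called. Fzd10 had no reads in IL-6 KO s1 tumors.

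Secreted and membrane inhibitors moved both ways, with 2 of 9 tested genes higher and 2 lower. Dkk2, given above, had the highest mean log2 CPM. Sfrp1, a secreted Frizzled-related protein that binds Wnt ligands, had the largest rise, from 355, 226, 85 and 109 reads to 743, 570, 815 and 678 (log2 fold change 2.12, SE 0.32, limma adjusted p = 4.3e-04). Apcdd1, a membrane inhibitor that is itself a Wnt target, had the largest fall, from 4175, 3752, 4058 and 3699 reads to 1579, 1183, 2177 and 2533. That was a log2 fold change of -1.08 (SE 0.19, limma adjusted p = 9.8e-04), close in size to that of Axin2. Kremen1, a receptor for Dickkopf proteins named after its values were seen, fell by 0.92 on the log2 scale. Dkk1, Dkk4, Sostdc1 and Cer1 had no reads.

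The changes of the destruction complex genes were small. Of 15 tested Dishevelled and destruction complex genes, 6 were lower and 2 were higher, within -0.54 (Dvl3, limma adjusted p = 0.0303) and 0.49 (Btrc, limma adjusted p = 0.0043). Ctnnb1, which encodes β-catenin, had the highest mean, at 9.67 ± 0.12 and 9.49 ± 0.18 log2 CPM, and its log2 fold change of -0.18 was not called (95% interval -0.42 to 0.06). RNA levels do not measure the β-catenin protein, which the complex controls.

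Of 13 tested nuclear partners of the TCF proteins, 5 were higher and 1 was lower. Tcf7l2 rose most. The groucho-type corepressors Tle1 (log2 fold change 1.04, limma adjusted p = 2.59e-05) and Tle4 (0.48) and the short family member Tle5 (0.63, the highest mean log2 CPM of the list over all 8 tumors) rose, while Tle3 fell by 0.53 (limma adjusted p = 7.4e-04). The fifth riser was Ctnnbip1 (0.68), which encodes an inhibitor of the binding of β-catenin to TCF. Tle4 and Ctnnbip1 were named after their values were seen.

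Target genes outside the member list moved both ways. Of 9 tested, 2 were lower, 2 were higher and 5 were not called. Ephb2, an ephrin receptor of the crypt, fell from 284 to 343 reads in scr to 104 to 151 in IL-6 KO s1 tumors (log2 fold change -1.15, SE 0.13, limma adjusted p = 7.5e-05). Its relative Ephb3 rose from 125 to 156 reads to 148 to 241 (log2 fold change 0.66, SE 0.15, limma adjusted p = 0.0047). Bambi, a decoy receptor, fell by 0.91 and the matrix protein gene Smoc2 rose by 0.64 on the log2 scale, both named after their values were seen. Ccnd1, the cyclin D1 gene and the highest of the list in mean log2 CPM, was at 9.79 ± 0.19 and 9.73 ± 0.13 log2 CPM (log2 fold change -0.06, 95% interval -0.31 to 0.19). Myc, also named after its values were seen, was at 0.07 with an interval of -0.15 to 0.29. For both genes a change of 2-fold lies outside the interval. Mmp7, Prox1, Sp8 and Tbxt had no reads in any tumor, and Cdx1 had none in scr.

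The genes most like Lef1 and Axin2 over the 8 tumors were sought by the root-mean-square (RMS) difference between profiles centred on each gene's mean. For Lef1 these were Galnt18 (0.235 log2 units), Ccdc149 (0.254) and Plekha6 (0.271), with log2 fold changes of -3.40, -3.07 and -3.30. For Axin2 they were Amacr (0.169), Akr1b8 (0.185) and Met (0.206), with log2 fold changes of -0.91, -1.14 and -0.81. All 6 genes passed the test, at limma adjusted p from 1.05e-06 (Galnt18) to 0.0372 (Met). They were picked for their likeness to a called gene, so these p-values largely follow from the choice. Ccdc149 averaged -0.54 log2 CPM in IL-6 KO s1 tumors, below the 1 CPM of the filter. None of the 6 lies on the chromosome of the member it resembles. The measure takes in the difference between the 2 groups as well as the spread within them.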

How the data were processed

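Subcutaneous tumors, 4 per group, were sequenced as poly(A) RNA in paired ends. According to the study's methods and the submitters' processing notes, the authors trimmed reads (Trimmomatic), aligned them to the mouse genome (HISAT2, mm10/GRCm38), counted them per gene (featureCounts) and normalized them with limma-voom. Versions of these tools, the annotation and the strand setting were not given in the sources used here. The deposited values are log2 CPM, with an offset of 0.5 reads, and 1 series table holds 27179 genes. Groups and replicates were taken from the sample titles. The labels do not name the mouse of each tumor, so p-values measure only the spread between these samples.

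Values were analysed with limma 3.58.1 (R 4.3.3; lmFit and eBayes with a mean-variance trend) in all 8 tumors, with Benjamini-Hochberg adjustment over the 13262 genes at 1 CPM or more in at least 4 tumors. Reads were recovered by inverting the voom formula, with the lowest value of each column as 0 reads, and 100% of values came out within 0.1 of a whole read. They were used for display, for ratios with 95% counting intervals and as an alternative with voom weights. For untested members, an exact two-sided permutation test over 70 divisions was used on log2 CPM. Gene positions and promoters are from RefSeq (GRCm38.p6), exon lengths from GENCODE M21, and each 10 Mb window is a fixed bin of the chromosome. Scripts were tested on simulated data.

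Named genes were all 10 members, and, of each Wnt list, the called genes with the largest rise and fall and the gene with the highest mean log2 CPM over all 8 tumors. Of each marker list they were the gene with the highest such mean and those without reads in a group. Other genes are marked as named after their values were seen. The members and lists were chosen with earlier results of these data known. Same-numbered tumors grew from different cell lines, and no block was used. Alternatives covered filters, normalization, pseudocount, trend, weights, replicate block, threshold, window medians and each tumor left out.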

Additional observations from a re-analysis of the deposited data

Results flagged for a closer look

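Each of the 10 genes was examined in each group of 4 tumors, 20 groups in all, for a tumor whose gap to its nearest neighbour took up more of the group's range than Dixon's 95% limit allows. For normally distributed values chance alone gives about 1 in 20, and 4 were found. That rate does not hold for groups with 0 reads in 3 tumors, where 1 read can be enough to stand apart. No excess over chance can therefore be read from the count. In scr tumors, Lgr5 stood at -1.85 log2 CPM in the second tumor (4 reads) against -5.06 to -4.83 in the others (0 reads), and Rnf43 at -2.25 in the first tumor (3 reads) against -5.02 to -4.83 (0 reads). In IL-6 KO s1 tumors, Sp5 stood at -3.44 in the first tumor (1 read) against -4.98 to -4.79 (0 reads), so these 3 rest on 1 to 4 reads. The fourth was Lef1, whose first IL-6 KO s1 value of 0.53 log2 CPM lay under the 1.55 to 1.74 of the remaining tumors. That tumor also had the lowest Axin2 value, 0.65, and the highest macrophage marker sum, 1451 CPM. Their part in the low Lef1 value was not tested.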

How the results depend on the processing

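Over 18 alternatives, Lef1 stayed lower and called, at log2 fold changes of -3.50 to -2.91, as did Axin2 over 17, at -1.35 to -0.82; the number of members lower was 2 to 4, and of members higher 0. Sp5 joined the members lower when no filter on low values was set (log2 fold change -2.63, limma adjusted p = 0.00254 over 20569 genes). Its IL-6 KO s1 values rest on 1, 0, 0 and 0 reads, so this size and p-value depend on the offset added to each read count. With a pseudocount of 1 CPM the difference of its means was -0.29. Znrf3 lost its call with 2 tumors left out in turn and with its window median removed, as given above, and did not reach the 2-fold threshold. With each tumor left out in turn, 10 to 18 Wnt pathway genes were lower, with the 10 found without scr replicate 3. At the 2-fold threshold 4 pathway genes were lower and 5 higher, and of all tested genes 521 were lower and 829 higher. Replicate numbers did not pair the tumors (correlations of deviations -0.06 to 0.06), and a replicate block changed 1 member's call: Tcf7, at -0.60, passed (limma adjusted p = 0.038), giving 4 members lower, with 18 pathway genes lower and 13 higher. The cause of these changes was not tested. Depth limits the 5 members with at most 7 reads.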
